A study of Mus musculus with 6 samples.

Results

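Adamdec1 and 8 further ADAM protease genes (Adam28, Adam8, Adam9, Adam12, Adam15, Adam19, Adam22 and Adam23) were read in mouse myeloerythroid progenitors with and without an active form of Notch2. The members are every probe set (a group of short probes for a transcript) that the array's gene table assigns to exactly 1 of these 9 symbols, which gave 18 of 45101 probe sets. The family was chosen by the measured difference between the genotypes, in which Adamdec1 had one of the highest rises, and the other members came by name. The members' values in that contrast are therefore descriptions and carry no test. The cells were sorted from bone marrow as lineage-negative, cKit-positive and Sca1-negative. ICN2-positive mice were Rosa-lsl-ICN2 Mx1-cre+ males (3 arrays). ICN2-negative mice were Mx1-cre+ female littermates without the transgene (3 arrays). Both groups were 6 weeks old at treatment, carried Mx1-cre and were given polyIC (20 mcg per g) 3 times, and the cells were taken 1 week after the last dose. The Mx1 promoter that drives cre answers to the interferon that polyIC raises, in blood cells and in other cells as well, and cre then frees a Rosa26 transgene for the intracellular domain of Notch2 (ICN2). With males in one group and females in the other, the effects of sex and genotype cannot be told apart. Whether the 3 arrays of a group came from separate animals is not stated, and p-values may then rest on technical spread alone.

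ADAM proteins are metalloproteases with a prodomain, a zinc-binding protease domain and a disintegrin domain, and most of them are anchored in the cell membrane. The active members cut the outer part off membrane proteins such as growth factors, cytokine receptors and Notch receptors, while the disintegrin domain can bind integrins. ADAMDEC1, known from human macrophages, dendritic cells and the gut lining, is a short, secreted relative that has lost much of the disintegrin region and the membrane anchor. ADAM22 and ADAM23 lack protease activity and serve as receptors for LGI proteins in the nervous system.

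The RefSeq promoter table for GRCm38.p6 was matched by symbol and held 7 windows of 5 member genes (Adam8, Adam15, Adam19, Adam22 and Adam23). The 250 bases before the start are shown for Adam15, whose 4 probe sets all read lower in ICN2-positive cells, and for Adam22. Adam22 is the member whose window held the core letters of RBPJ, the DNA-binding partner of the Notch intracellular domain. Both are written 5′ to 3′ on the gene's strand, and capitals mark TGGGAA or its reverse complement TTCCCA.
Adam15, chr3:89350029-89350278, minus strand: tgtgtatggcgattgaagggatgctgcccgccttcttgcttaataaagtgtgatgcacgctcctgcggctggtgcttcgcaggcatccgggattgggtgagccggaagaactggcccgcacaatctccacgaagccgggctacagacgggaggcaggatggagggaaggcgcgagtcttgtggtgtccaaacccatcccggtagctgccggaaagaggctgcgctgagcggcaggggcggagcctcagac
Adam22, chr5:8368161-8368410, minus strand: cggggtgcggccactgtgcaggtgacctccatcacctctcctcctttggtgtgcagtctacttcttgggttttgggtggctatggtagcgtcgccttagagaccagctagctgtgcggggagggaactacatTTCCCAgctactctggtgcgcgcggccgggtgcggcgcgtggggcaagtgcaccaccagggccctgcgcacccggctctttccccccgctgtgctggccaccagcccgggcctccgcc
The letters TGGGAA were searched on both strands and stood in 1 of the 7 windows, that of Adam22. Over all 32851 windows of the same length in the table, 21.6% held them. The Adam15 window had 62% G or C and 18 CG pairs, against a median of 52.4% and 6 over all windows. A match of letters is a description and not a binding site.

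The deposited values are intensities made with RMA, which forces the arrays to nearly the same distribution, and they are given here as log2 intensity. Testing was limited to probe sets brighter than the 40th percentile of intensity on 3 or more of the 6 arrays. That limit was 5.26 to 5.30 (log2) and is not a measured background. Correlations across tested probe sets were 0.966 and 0.974 between ICN2-positive replicate 1 and ICN2-positive replicates 2 and 3, against 0.991 between these 2, and 0.989 to 0.991 among the ICN2-negative arrays. ICN2-positive replicate 1 therefore stood apart. Where its omission moved a difference printed below for a member or listed gene by over 1.5 times in fold, the difference is given with and without it. Kit, the cKit receptor that defines the sort, read 10.15 to 10.86 in ICN2-positive cells and 10.38 to 10.50 in ICN2-negative cells. The lineage genes Ms4a1 and Itgam lay below the limit on all 6 arrays. Cd79a of B cells read 5.42 to 5.53 in ICN2-positive cells and 5.67 to 8.74 in ICN2-negative cells, and Cd3e of T cells read 6.16 to 7.52 in ICN2-positive cells and 5.27 to 6.14 in ICN2-negative cells. Of 6 sort markers tested, none passed an adjusted p of 0.05 in limma, and 1 higher and 1 lower had an unadjusted p under 0.05, against 14.6% higher and 11.9% lower at that p among all 12837 genes read by their brightest tested probe set. No named probe set for Ly6a (Sca1) was used here. The sex labels matched Xist, which read 4.70 to 5.47 in ICN2-positive cells and 11.22 to 11.38 in ICN2-negative cells, and the Y-linked genes Eif2s3y, Kdm5d and Uty, which were higher in all 3 ICN2-positive arrays.

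Adamdec1 was the member with the largest difference. Its probe set, 1419476_at, read 7.79, 10.80 and 10.68 in ICN2-positive replicates 1, 2 and 3, against 3.61, 3.97 and 4.13 in ICN2-negative replicates 1, 2 and 3 (log2 intensity). Every ICN2-positive array lay above every ICN2-negative array, and ICN2-positive replicate 1 was the low one of its group. The group means were 9.76 ± 1.70 and 3.90 ± 0.27 (ICN2 positive and ICN2 negative, SD, n = 3 each), a difference of 5.85 on the log2 scale. All 3 ICN2-negative arrays lay below the 40th percentile, so the fold was also taken against that limit, which made Adamdec1 at least 22.1-fold higher in ICN2-positive cells. By this measure it was at least 43.7-fold higher in ICN2-positive replicates 2 and 3 alone and at least 5.68-fold higher in ICN2-positive replicate 1 alone. Because the samples are bulk RNA, more cells of a type that makes Adamdec1 and more of its RNA per cell cannot be told apart.

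The spread among the ICN2-positive arrays was itself large. Adamdec1 spanned 3.00 on the log2 scale within the ICN2-positive group and 0.52 within the ICN2-negative group. Over all tested probe sets, the median span was 0.32 in ICN2-positive arrays and 0.25 in ICN2-negative arrays, and 0.634% spanned as much as Adamdec1 in the ICN2-positive group. Without ICN2-positive replicate 1 the difference was 6.84 (log2).

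**Figure D1:**
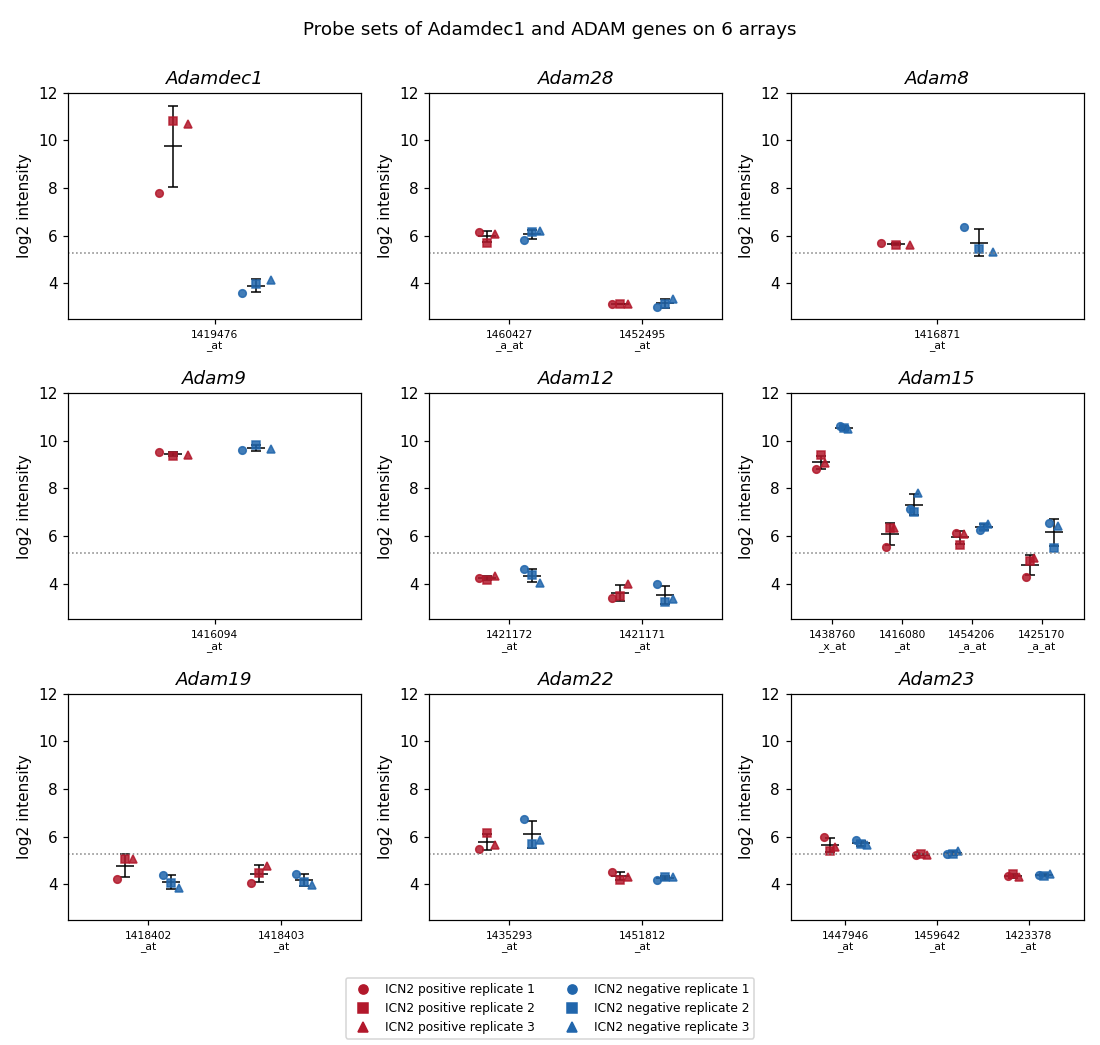
Log2 intensity (y axis) of the 18 probe sets of the 9 member genes (panels), with ICN2-positive arrays in red at the left and ICN2-negative arrays in blue at the right of each probe set. Black bars are the mean ± SD of 3 arrays and the dotted line is the mean 40th percentile. Adamdec1 lies at 7.79 to 10.80 in ICN2-positive cells and at 3.61 to 4.13 in ICN2-negative cells, and the 4 Adam15 probe sets are lower in ICN2-positive cells.

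Adamdec1 lies on chromosome 14 beside other genes of its family. In the RefSeq order of GRCm38.p6, the 10 nearest genes (5 on each side) include Adam28, the next gene on one side, and Adam7, the second on the other, and these were the 2 neighbours with a probe set. Adam28, a membrane ADAM of lymphocytes whose disintegrin domain binds integrin alpha 4, did not share the Adamdec1 pattern. Its brighter probe set, 1460427_a_at, read 6.14, 5.70 and 6.07 in ICN2-positive cells and 5.82, 6.15 and 6.18 in ICN2-negative cells, so the groups overlapped. The means were 5.97 ± 0.24 and 6.05 ± 0.20 (SD, n = 3 each), a difference of -0.08 (log2). The other Adam28 probe set, 1452495_at, lay at 3.13 to 3.15 in ICN2-positive cells and 2.99 to 3.35 in ICN2-negative cells, below the limit on all arrays. Adam7, a gene of the epididymis, averaged 3.90 ± 0.14 in ICN2-positive cells and 3.92 ± 0.08 in ICN2-negative cells (SD, n = 3 each), also below the limit.

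The genes with the pattern most like that of Adamdec1 were sought by the root mean square distance between log2 values centred on each probe set's mean, over the 6 arrays. The 5 nearest genes were Gzma, a granzyme of cytotoxic cells (distance 0.43), Colec11, a soluble lectin (0.49), Pla2g7, an enzyme that breaks down platelet-activating factor (0.68), Mcpt1, a mast cell protease (0.72), and Epha4, an ephrin receptor (1.02). Since the distance was taken over all 6 arrays, a large rise in ICN2-positive cells and a low ICN2-positive replicate 1 are both part of what was sought. The likeness is therefore a description. Colec11, Pla2g7, Mcpt1 and Epha4 passed the limit on low values through the ICN2-positive arrays alone. Gzma read 10.22, 12.59 and 12.26 in ICN2-positive replicates 1, 2 and 3 and 6.14, 5.36 and 5.76 in ICN2-negative replicates 1, 2 and 3. Pla2g7 read 6.91, 10.08 and 9.91 in the ICN2-positive arrays and 4.23, 4.74 and 4.34 in the ICN2-negative arrays. The Colec11 probe set may read more than 1 transcript by its type (_s_at).

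**Figure D2:**
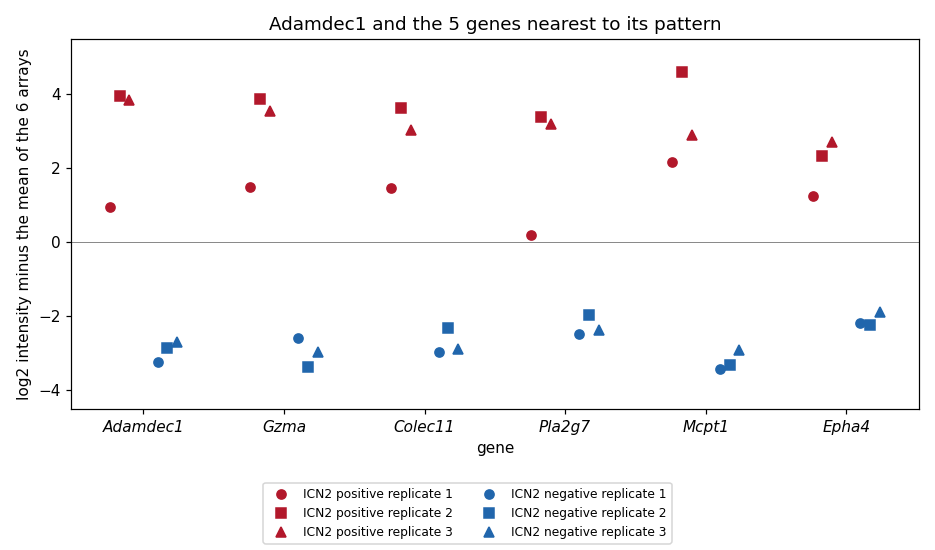
Log2 intensity minus the mean of the 6 arrays (y axis) for Adamdec1 and the 5 genes nearest to its pattern (x axis), with ICN2-positive arrays in red at the left and ICN2-negative arrays in blue at the right, and a marker shape per replicate number. In each of the 6 genes, ICN2-positive replicate 1 (red circle) is the lowest of the ICN2-positive arrays and lies above all ICN2-negative arrays. The choice by distance favours both.

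Markers of other cell types lay higher in some lists and lower in others beside Adamdec1. For macrophage and dendritic cell markers, the cells in which ADAMDEC1 is known from human work, the summed intensity of 18 genes was 5492 to 9980 in ICN2-positive arrays and 15157 to 17601 in ICN2-negative arrays. Of 17 tested, 2 fell and none rose (8 lower and 1 higher at an unadjusted p under 0.05), and 1 marker (Xcr1) lay below the limit on all arrays. The markers that fell were the cytokine receptor gene Flt3, by 3.71 (log2) with an SE of 0.29 (n = 3 per group, limma adjusted p = 0.00717), and the adhesion molecule gene Vcam1. The macrophage surface genes Adgre1 and Cd14 differed by -2.03 and -1.83 (log2, adjusted p = 0.0737 and 0.0753 in limma). Flt3 passed whichever single array was left out, whereas Vcam1 and Cd14 passed without ICN2-positive replicate 1 and not when any other single array was left out. The summed intensity of 13 mast cell and basophil markers was 9378 in ICN2-positive replicate 1, 36599 and 28986 in ICN2-positive replicates 2 and 3, and 17932 to 21920 in ICN2-negative arrays. Of 12 tested, 4 were called higher (2 to 4 with 1 array left out) and none lower, and Tpsab1 lay below the limit on all arrays. By means, 7 of the 12 were higher and 5 lower (median difference 0.16). Of the called genes, Mcpt1, Mcpt2 and Mcpt4 passed the limit on low values through the ICN2-positive arrays alone. The sum of 14 T and NK cell markers was 15091 to 27535 in ICN2-positive arrays and 12606 to 13783 in ICN2-negative arrays. Of 13 tested, Gzma and Gzmb were called higher (5 higher and 1 lower at an unadjusted p under 0.05). Gzmb read 12.14, 12.58 and 12.31 in ICN2-positive cells and 7.88, 6.90 and 7.06 in ICN2-negative cells. Without Gzma and Gzmb, the sums of the groups overlap. By means, 11 of the 13 were higher and 2 lower in ICN2-positive cells. Gzma differed by 5.94 (log2), and by 6.67 without ICN2-positive replicate 1. It was not called without ICN2-positive replicate 3 or any single ICN2-negative array. B cell markers (11 genes) summed to 1123 to 2430 in ICN2-positive arrays and 3843 to 15617 in ICN2-negative arrays, and none of 8 tested passed in limma, with 5 lower at an unadjusted p under 0.05, and Ms4a1 and Pax5 were below the limit throughout. Stromal and endothelial markers (12 genes) summed to 1118 to 2258 in ICN2-positive arrays and 975 to 1536 in ICN2-negative arrays, and none of 7 tested passed in limma, with 1 higher at an unadjusted p under 0.05. That gene, Pdgfrb, passed without ICN2-positive replicate 1, and Col3a1, Lepr, Pdgfra and Cdh5 lay below the limit on all arrays. In ICN2-positive replicates 2 and 3 alone, the sums were 8431 to 9980 for macrophage and dendritic cell markers, 22170 to 27535 for T and NK cell markers, 1570 to 2430 for B cell markers and 1905 to 2258 for stromal and endothelial markers. The part of these cell types in the Adamdec1 values was not tested.

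Adam15, a membrane ADAM whose disintegrin domain binds integrins in the human protein, was lower in ICN2-positive cells on all 4 of its probe sets. The brightest, 1438760_x_at, read 8.84, 9.40 and 9.07 in ICN2-positive cells and 10.61, 10.53 and 10.48 in ICN2-negative cells. The groups did not overlap, and the means of 9.10 ± 0.28 and 10.54 ± 0.06 (SD, n = 3 each) differed by -1.44 on the log2 scale, which is 2.72-fold. Some probes of a set of this type (_x_at) can also match other transcripts.

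The other Adam15 probe sets do not carry that mark, and they gave the same direction with different sizes. Probe set 1416080_at read 5.54, 6.35 and 6.33 in ICN2-positive cells and 7.15, 7.01 and 7.82 in ICN2-negative cells, a difference of -1.25. Probe set 1425170_a_at read 4.30, 4.94 and 5.09 in ICN2-positive cells, all below the limit, and 6.55, 5.49 and 6.41 in ICN2-negative cells. Taken against the limit, it was at least 1.83-fold lower in ICN2-positive cells. Probe set 1454206_a_at differed the least, with 6.13, 5.64 and 6.08 in ICN2-positive cells and 6.26, 6.39 and 6.50 in ICN2-negative cells, a difference of -0.44. The groups did not overlap on any of the 4, which read 1 gene on the same arrays. Over all tested probe sets, the groups did not overlap in 33.7%, with 14% lower. With 1 array left out, the differences ran from -1.59 to -1.31 for 1438760_x_at, from -1.41 to -0.99 for 1416080_at, from -1.71 to -1.14 for 1425170_a_at and from -0.53 to -0.28 for 1454206_a_at, the last of these without ICN2-positive replicate 2. Probe sets ending in _a_at read several transcript forms of a gene.

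Adam9, a widely expressed ADAM with protease activity, was bright and differed little. Its probe set read 9.55, 9.38 and 9.42 in ICN2-positive cells and 9.61, 9.84 and 9.67 in ICN2-negative cells. The groups did not overlap, but the nearest arrays of the 2 groups were 9.55 and 9.61, and the means of 9.45 ± 0.09 and 9.70 ± 0.12 (SD, n = 3 each) differed by -0.25 (log2). Adam8, an active ADAM of granulocytes and monocytes, read 5.68, 5.62 and 5.62 in ICN2-positive cells and 6.36, 5.44 and 5.33 in ICN2-negative cells. The ICN2-positive values lay inside the ICN2-negative range, in which replicate 1 was the high array, and the means differed by -0.07.

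Adam12 and Adam19, the meltrins alpha and beta of muscle, bone and heart development, lay below the limit on every array with both of their probe sets each, so none of these was tested. Adam12 read 3.39 to 4.31 in ICN2-positive cells and 3.24 to 4.62 in ICN2-negative cells over its 2 probe sets, which differed by 0.09 and -0.11 (log2). Adam19 probe set 1418402_at read 4.22, 5.04 and 5.06 in ICN2-positive cells and 4.39, 4.04 and 3.83 in ICN2-negative cells. The ICN2-positive replicates 2 and 3 were above all ICN2-negative arrays and replicate 1 was not, and without replicate 1 the difference was 0.96 in place of 0.69. The other Adam19 probe set, 1418403_at, had a difference of 0.27, which was 0.46 without ICN2-positive replicate 1.

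The members without protease activity, Adam22 and Adam23, were dim. Adam22 probe set 1435293_at read 5.49, 6.14 and 5.64 in ICN2-positive cells and 6.73, 5.68 and 5.86 in ICN2-negative cells, with overlapping groups and a difference of -0.33, and the omission of ICN2-negative replicate 1 or 2 made it -0.01 or -0.53. Its other probe set lay below the limit on all arrays and differed by 0.07. The brightest Adam23 probe set, 1447946_at, read 5.96, 5.41 and 5.57 in ICN2-positive cells and 5.84, 5.67 and 5.66 in ICN2-negative cells, a difference of -0.08. The other 2 Adam23 probe sets differed by -0.08 and -0.02. Probe set 1459642_at did not overlap between the groups, although its 6 values spanned only 5.21 to 5.41 and only 1 ICN2-negative array was above the limit.

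Of the 18 probe sets, 10 were tested, standing for 7 genes, and 8 were not. Adamdec1 passed the limit on low values through the ICN2-positive arrays alone and Adam15 1425170_a_at through the ICN2-negative arrays alone. At the threshold used for the other genes (an adjusted p of 0.05 in limma over all 27424 tested probe sets), 2 of the 10 lay past it, Adamdec1 higher and Adam15 1438760_x_at lower, and over all tested probe sets 2.65% did, 1.67% higher and 0.988% lower. With 1 array left out, Adamdec1 lay past the threshold only without ICN2-positive replicate 1. Adam15 1438760_x_at did so only without ICN2-positive replicate 1 or 2. Neither did in a fit with the replicate number as a block. These calls are no test of the members, whose choice rests on the same contrast. The groups did not overlap in 6 of the 10, 1 higher and 5 lower, 4 of these 5 being Adam15. Over all tested probe sets the groups did not overlap in 33.7%, with 19.7% higher and 14% lower. Since the members were chosen with this contrast known, these counts describe them and are not set against those shares.

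**Figure D3:**
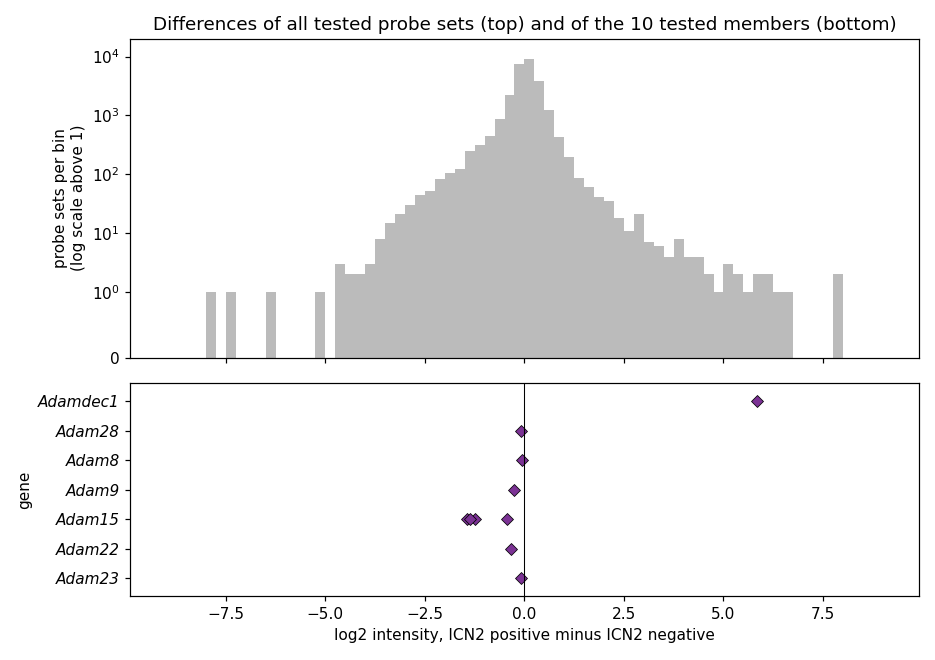
Top, number of tested probe sets (y axis, log scale above 1) by their difference in log2 intensity, ICN2 positive minus ICN2 negative (x axis, all 27424). Bottom, the differences of the 10 tested member probe sets by gene. Adamdec1 lies at 5.85, the 4 Adam15 probe sets lie between -1.44 and -0.44, and the other 5 lie between -0.33 and -0.07.

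The rest of the ADAM family and its surroundings were read from 6 gene lists, each gene by its brightest tested probe set, and 6 of 76 tested genes passed, 3 higher and 3 lower. Among all 12837 genes read this way, 3.15% passed, 1.89% higher and 1.27% lower. The median difference over the 76 genes was -0.08 (log2), against 0.02 over all genes. The lists were chosen with earlier results of these data known, so these counts describe them and are no test. Of the genes that passed, Adamts20 and Mmp8 cleared the limit on low values through the arrays of 1 group alone.

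Among 20 other ADAM genes with a probe set, 15 were not tested for low values, and these include Adam2, Adam3 and Adam5 of the testis. All 5 tested had lower means in ICN2-positive cells (median -0.19), and 1 fell. Adam33, a membrane ADAM known from airway muscle, read 5.30, 4.77 and 5.22 in ICN2-positive cells and 6.47, 6.63 and 6.00 in ICN2-negative cells. It fell by 1.27 (log2) with an SE of 0.22 (n = 3 per group, limma adjusted p = 0.0487). Its call was lost when any single array was left out (adjusted p = 0.0586 to 0.164) and with no filter on low values (0.0581). A robust variance model (0.0528) and a fit with the replicate number as a block (0.0972) lost it as well. The second Adam33 probe set, below the limit, differed by -0.02. Adam10 and Adam17, the proteases that cut Notch receptors and TNF at the cell surface, differed by -0.12 and -0.27 (adjusted p = 0.36 and 0.153).

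Of 8 tested ADAMTS genes, secreted relatives that act on matrix, 2 rose and none fell (median 0.06). Adamts20, a protease of versican in development, read 7.15, 6.35 and 7.10 in ICN2-positive cells and 2.98, 3.22 and 2.91 in ICN2-negative cells. All ICN2-negative arrays were below the limit, and against it the gene was at least 2.99-fold higher in ICN2-positive cells. The call in limma was of the log2 difference, 3.83 (adjusted p = 0.0034), and not of this bound. This call was present when any single array was left out. Adamts20 passed the limit on low values through the ICN2-positive arrays alone, so its call is a description. Unlike Adamdec1, ICN2-positive replicate 1 was not the low array of Adamts20. Adamts3, which trims procollagen and acts on VEGF-C, read 10.63, 10.17 and 10.07 in ICN2-positive cells and 9.31, 8.89 and 9.12 in ICN2-negative cells. It rose by 1.18 ± 0.19 (log2 difference ± SE, limma adjusted p = 0.0412), and of the fits that leave out 1 array only that without ICN2-positive replicate 1 called it (adjusted p otherwise up to 0.146). With the replicate number as a block the Adamts3 call was lost as well (limma adjusted p = 0.0537). Its second probe set differed by 1.07 and was not called.

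Of 8 tested matrix metalloproteases, 1 rose and 1 fell (median -0.14). Mmp8, the collagenase of neutrophil granules, read 5.18, 5.22 and 4.82 in ICN2-positive cells and 6.46, 6.50 and 6.62 in ICN2-negative cells. Against the limit it was at least 2.37-fold lower in ICN2-positive cells. The call in limma was of the log2 difference, -1.45 (adjusted p = 0.0099), and not of this bound. This call was lost without ICN2-negative replicate 2 or 3 (adjusted p up to 0.0652) and with the replicate number as a block (0.0555). Mmp8 passed the limit on low values through the ICN2-negative arrays alone, so its call is a description. Mmp17, a membrane-anchored metalloprotease, rose by 0.70 ± 0.11 (log2, limma adjusted p = 0.0415). Its call was lost without any single array (adjusted p = 0.0606 to 0.149) and with no filter (0.0517). A further quantile normalization (0.0542) and the replicate number as a block (0.0601) lost it as well. Mmp19 differed by -2.82 (adjusted p = 0.0957), with 5.04, 7.30 and 7.39 in ICN2-positive cells and 8.68, 9.75 and 9.76 in ICN2-negative cells, and by -2.05 without ICN2-positive replicate 1.

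Among 15 tested genes for inhibition and maturation of ADAM proteases, none passed in limma, and 2 higher and 3 lower had an unadjusted p under 0.05 (median -0.07). Reck, a membrane inhibitor of metalloproteases, differed by -1.30 (adjusted p = 0.0614) and was called lower without ICN2-positive replicate 1. Tspan17 and Tspan5, tetraspanins that escort ADAM10, differed by -0.34 and -0.99 (adjusted p = 0.0726 and 0.147), and the Tspan5 difference was -0.63 without ICN2-positive replicate 1. Among 12 tested binding partners none passed in limma, with 3 higher and 3 lower at an unadjusted p under 0.05 (median 0.05). Itga4, the integrin alpha 4 chain, differed by 0.25 and the integrin chain gene Itgb5 by -1.22 (adjusted p = 0.142 and 0.0815).

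Of 28 tested genes for proteins that ADAM proteases shed, 1 fell and none rose (median -0.08). Vcam1, an adhesion molecule cut by ADAM17, read 6.36, 7.59 and 8.09 in ICN2-positive cells and 9.77, 10.11 and 10.29 in ICN2-negative cells. It fell by 2.71 ± 0.45 (log2, limma adjusted p = 0.0447), and its 2 other probe sets also passed, at -1.39 and -1.07. For the brightest probe set, leaving out ICN2-positive replicate 1 was the one omission that kept the call (adjusted p otherwise up to 0.168). With no filter (0.0531) or the replicate number as a block (0.056) the call was lost as well. Il6ra, the interleukin 6 receptor, differed by -2.70 (adjusted p = 0.0792), with 6.19, 8.35 and 8.24 in ICN2-positive cells and 10.08, 10.43 and 10.38 in ICN2-negative cells, and by -2.00 without ICN2-positive replicate 1. Prnp, the prion protein gene, differed by -2.07 (adjusted p = 0.0695). Without ICN2-positive replicate 1, 3 of the 28 were lower (Vcam1, Il6ra and Prnp) and 1 was higher (Tek).

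**Figure D4:**
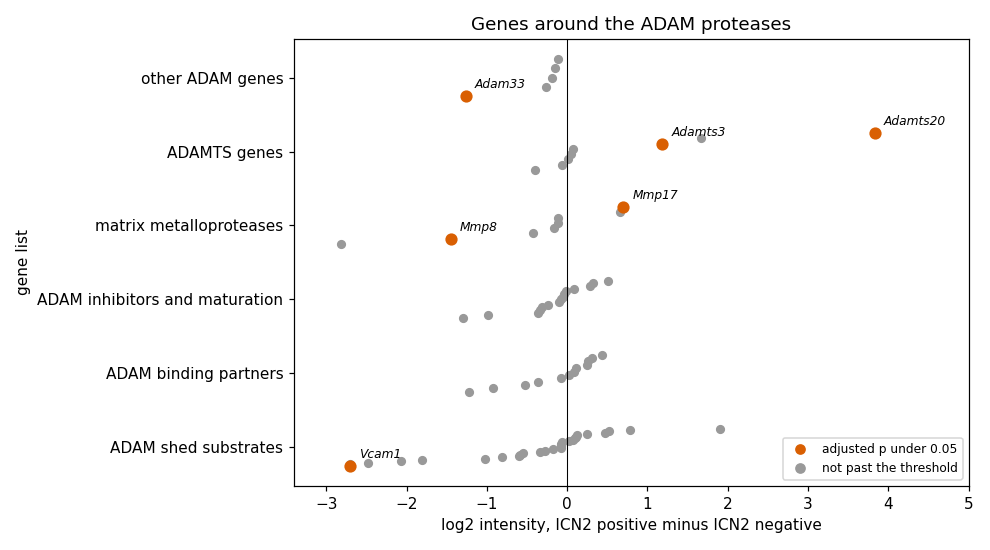
Difference in log2 intensity, ICN2 positive minus ICN2 negative (x axis), of the 76 tested genes of 6 lists around the ADAM proteases (y axis), 1 point per gene. Orange points passed an adjusted p of 0.05 in limma and are named: Adamts20, Adamts3 and Mmp17 were higher and Vcam1, Mmp8 and Adam33 lower in ICN2-positive cells. The Vcam1 point at -2.71 covers that of Il6ra at -2.70.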

How the data were processed

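Gene expression was measured on 6 Affymetrix mouse arrays, 3 per genotype, from 5 ng of amplified total RNA per sample, per the labels' protocols. The authors deposited 1 intensity per probe set and array, made with RMA per the submitters' processing notes; no version was named. The values are linear (5.13 to 24678.5) and log2 was taken here. Arrays give no depth, and their number limits the precision. After 64 control probe sets were left out, limma 3.58.1 in R 4.3.3 (lmFit, eBayes, no covariate) was fitted to the 27424 probe sets above the 40th percentile on at least 3 of 6 arrays, adjusted by Benjamini-Hochberg and called under 0.05. Adjusted p come from this fit, which was tested on simulated data, or from the same model under an alternative where one is named. The simulated errors were normal, independent and of the same spread on every array. That test therefore does not cover an array that stands apart, as ICN2-positive replicate 1 did. Genes were named from the platform annotation where a probe set had 1 gene; all 9 members matched RefSeq. The members and lists were chosen with earlier results of these data known. Named genes were all members, up to 4 genes per list with the smallest p, the sort and sex-linked genes, and the neighbours and nearest patterns of Adamdec1; Tek and Gzmb were named as calls, and Adam2, Adam3 and Adam5 as untested examples. The fold against the 40th percentile was chosen after the values were seen. Alternatives covered the filter, normalization, variance model, the threshold, array weights, which probe sets stand for a gene, a replicate block and each array left out.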

Additional observations from a re-analysis of the deposited data

How the results depend on the processing

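For the 10 tested member probe sets, 90 differences were recomputed under the 9 settings that can change a difference (median centring, quantile normalization, array weights and each array left out). All 90 moved by less than 1 SD between replicates. The 8 other probe sets were not recomputed under these settings. Leaving out 1 of 3 arrays cannot move a group mean by 1 SD of that group. For those settings the mark could not be exceeded and is no measure of stability. With 1 array left out, the small differences ran from -0.53 to -0.01 for the brighter Adam22 probe set, from -0.26 to 0.25 for Adam8, from -0.24 to 0.04 for the brightest Adam23 probe set and from -0.20 to 0.05 for the brighter Adam28 probe set. The counts of calls depended on the processing. The count over all probe sets, 728, became 1216 with a variance trend, 3970 with array weights and 103 at an adjusted p of 0.01, and 95 to 860 with 1 array left out. The count of members, 2, became 4 with array weights (2 more Adam15 probe sets), 1 without probe sets ending in _s_at or _x_at, 0 at an adjusted p of 0.01, and 0 to 2 with 1 array left out. The count of listed genes, 6, became 3 with no filter, 2 with a filter at the 60th percentile, 23 with array weights, 13 with the mean of each gene's probe sets and 2 at an adjusted p of 0.01, and 1 to 8 with 1 array left out. With the replicate number as a block, 268 probe sets, 0 members and 1 listed gene passed. The deviations of same-numbered arrays correlated at 0.18, 0.10 and 0.09, and those of differently numbered arrays at -0.20 to 0.13. These values do not settle whether the numbers pair the samples, and the main fit used no pairing. The causes of these changes were not tested, and some of the fits had fewer arrays or probe sets. Where all arrays of a group lay below the 40th percentile, only a bound on the fold could be given.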
